A study of Homo sapiens with 24 samples.

Results

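The comparison described here asks which genes changed when the transcription factor YY1 was lowered in ACHN cells in which the histone demethylase KDM5C was already low. ACHN is a human renal cancer cell line, which the labels call clear cell renal cell carcinoma. It rests on 6 of the 24 RNA-seq libraries of the series, namely 3 libraries of shKDM5C cells and 3 libraries of double-knockdown cells, chosen by their labels alone. The shKDM5C cells carried a short hairpin RNA against KDM5C. The double-knockdown cells carried hairpins against both KDM5C and YY1, so both groups carried a KDM5C hairpin and the YY1 hairpin was the intended difference. According to the study's methods the hairpins were expressed from the pLKO.1 plasmid under puromycin selection, and the double-knockdown cells were made by adding a GFP-labelled KDM5C hairpin plasmid to cells that already carried the YY1 hairpin, followed by selection for puromycin resistance and green fluorescence. The groups therefore also differed in GFP and in the order of infection, and effects of these cannot be told apart from effects of the YY1 hairpin. Which of the hairpins tested per gene was used for sequencing is not given in the sources used here, nor whether the lines were pools or clones. It is therefore unknown whether the groups carried the same KDM5C hairpin sequence, and effects of a different sequence could not be told apart either. The 6 shCtrl (control hairpin) and shYY1 libraries of ACHN gave the effect of YY1 knockdown at undiminished KDM5C, and 6 libraries of HK-2, an immortalised human proximal tubule line, gave the same contrast in other cells.

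YY1 is a zinc finger protein that binds short DNA motifs, often just downstream of transcription start sites, and can activate or repress a gene depending on its partners, which include Polycomb proteins and the INO80 chromatin remodelling complex. KDM5C removes methyl groups from di- and trimethylated lysine 4 of histone H3, a mark of active promoters and enhancers, and its gene on the X chromosome is recurrently mutated in clear cell renal cancer. In proliferating tumour cells YY1 is known for the control of cell cycle, p53, respiratory chain and ribosome genes, and lists of these genes organise the results below.

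Between 17910371 and 24272298 read pairs per library were counted on genes in the 6 libraries, which limits counting error for all but the lowest genes. Levels are given as CPM, the count of a gene relative to all counts of its library, scaled with edgeR's TMM factors. The 3 double-knockdown replicates differed from each other more than the shKDM5C replicates did, with chi-square values per degree of freedom of 5.62 to 6.97 against 2.09 to 3.04, where 1 is counting noise. No sample pair was a duplicate of another. Nothing in the labels says that replicates were separate cultures, so p-values measure only the spread between these libraries. Of 38 genes expressed above 10 CPM in the other 3 ACHN groups and below 0.2 CPM in HK-2, 37 were at 3 CPM or more in the double knockdown, and of 53 genes with the opposite pattern 0 reached 1 CPM there, so the double-knockdown libraries carried the ACHN expression pattern. Of 8 renal epithelial markers, 7 were at 1 CPM or more in both groups, with summed levels of 3847 to 3974 CPM in shKDM5C and 2639 to 2811 CPM in the double knockdown. Of 4 clear cell markers, 3 were at 1 CPM or more in shKDM5C and 1 in the double knockdown, with summed levels of 30.06 to 35.53 CPM and 260.8 to 274.3 CPM, nearly all of it from ANGPTL4, while CA9 had no counts in the double knockdown. ANGPTL4, a secreted lipase inhibitor, was at 31.1 ± 3.27 CPM in shKDM5C and 267.6 ± 7.47 CPM in double-knockdown cells (SD, n = 3). No immune, endothelial, erythroid or liver marker reached 1 CPM in either group. Of 6 fibroblast and muscle markers 3 did, with summed levels of 88.49 to 91.67 CPM and 156.9 to 176.5 CPM. Its members moved in opposite directions, as COL1A1 rose from 48.6 ± 2.49 to 133 ± 8.33 CPM and PDGFRB, a growth factor receptor, fell from 25.9 ± 0.417 to 7.58 ± 0.376 CPM (SD, n = 3).

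The targeted genes were examined first. YY1 (ENSG00000100811, chromosome 14 of GRCh38 from 100238298 to 100282792) was at 149, 142 and 139 CPM in the shKDM5C libraries and at 89.7, 103 and 95.3 CPM in the double-knockdown libraries. All double-knockdown libraries were below all shKDM5C libraries, and the log2 fold change was -0.57 (SE 0.05, adjusted p = 8.18e-08, edgeR), a 1.49-fold decrease. In ACHN cells with undiminished KDM5C the same factor went from 137 ± 3.92 CPM in shCtrl to 75.5 ± 3.32 CPM in shYY1 (SD, n = 3), a log2 fold change of -0.88. The reduction of YY1 was thus smaller on the KDM5C-knockdown background (difference 0.28, adjusted p = 0.00125, edgeR).

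KDM5C (ENSG00000126012, X chromosome from 53191321 to 53225422) was at 41.1, 43.5 and 41.9 CPM in shKDM5C and at 39.7, 40.7 and 40.1 CPM in the double knockdown. The libraries did not overlap, but the difference did not pass the test (log2 fold change -0.06, SE 0.06, adjusted p = 0.402, edgeR). With each library's trend over transcript length and GC content removed, KDM5C was called lower in the double knockdown (-0.21, adjusted p = 0.0035). Both groups lay below the 69.6 ± 0.538 CPM of shCtrl (SD, n = 3), whereas shYY1 cells had 89.1 ± 2.52 CPM. KDM5B, a paralog that removes the same methyl marks, was at 99.3, 103 and 109 CPM in shKDM5C and 153, 173 and 164 CPM in the double knockdown, without overlap (log2 fold change 0.66, SE 0.05, adjusted p = 1.04e-08). YY2, the retrogene paralog of YY1, rose from 1.19 ± 0.426 to 3.05 ± 1.03 CPM (SD, n = 3). KDM5A, at 114 ± 3.50 and 122 ± 11.4 CPM, did not pass the test. ZFP42, another paralog of YY1, was at or near 0 counts and was not tested.

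**Figure D1:**
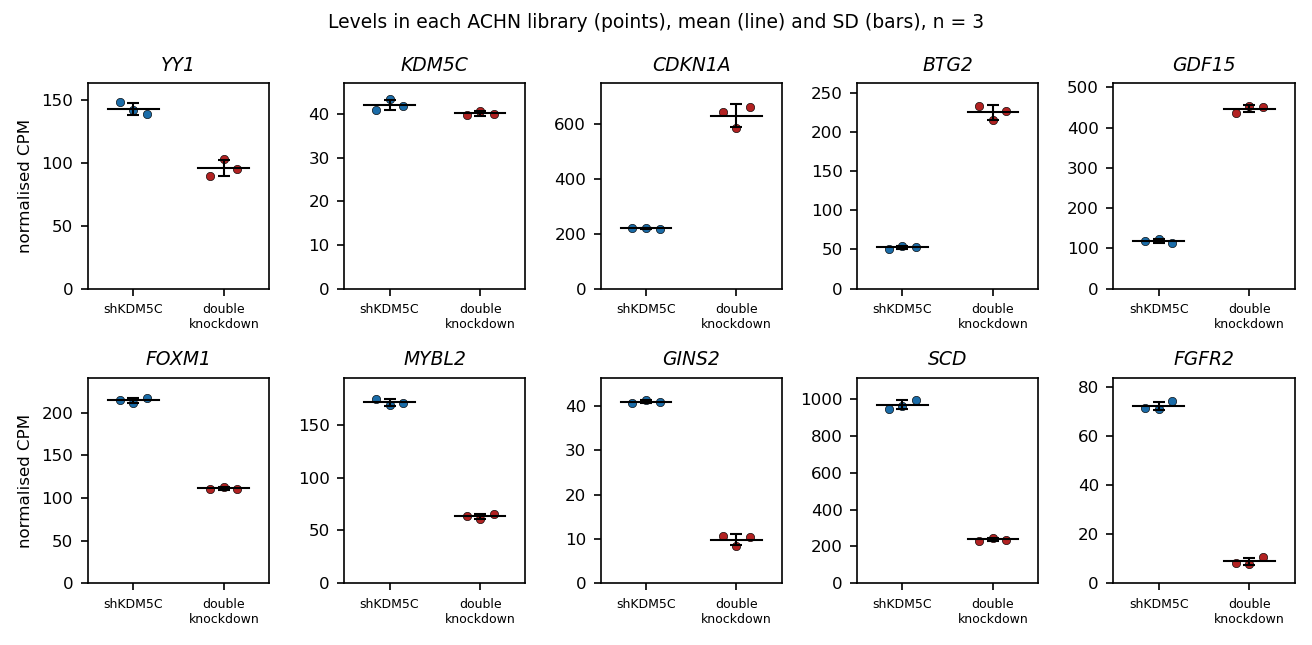
Each panel shows 1 gene in the 3 shKDM5C libraries and the 3 double-knockdown libraries of ACHN, in normalised CPM from 0, with points for libraries, a line for the mean and bars for the SD. YY1 was lower in all double-knockdown libraries, KDM5C did not pass the test, CDKN1A, BTG2 and GDF15 were higher, and FOXM1, MYBL2, GINS2, SCD and FGFR2 were lower.

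Of 16112 genes tested, 5085 were higher (31.6%) and 4982 lower (30.9%) in the double knockdown at an adjusted p-value under 0.05, together 62.5% of the genes. The libraries of the groups did not overlap for 67.0% of the genes. Most of these changes were small, as 50.4% of the called genes differed by less than 1.5-fold. At the study's threshold, which asks for a change of 1.5 or more on the log2 scale with an unadjusted p-value below 0.05, 577 genes were higher (3.58%) and 500 lower (3.10%). Of these 1077 genes, 2 had an adjusted p-value of 0.05 or more. Protein-coding genes made up 346 of the higher and 344 of the lower genes, long noncoding RNAs 115 and 64, and pseudogenes 65 and 68. Because so many genes passed the test, each list below was read against the shares of all genes. In bulk RNA, fewer cells of one kind and less RNA per cell cannot be told apart.

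Genes of cell division were lower in the double knockdown. Of 45 genes of the replication fork and origins, 40 were lower and 2 higher (median log2 fold change -0.56, against 0.0186 over all genes tested). Of 22 genes of nucleotide supply, 20 were lower and 0 higher. Mitosis and kinetochore genes moved the most, with 46 of 47 lower, 1 higher and a median of -0.85, and 16 of 21 condensin and cohesin genes were lower and 1 higher. FOXM1, the transcription factor that drives G2 and M phase genes, was at 215, 211 and 217 CPM in shKDM5C and at 110, 113 and 110 CPM in the double knockdown. The 6 libraries formed well separated groups, and the log2 fold change was -0.94 (SE 0.04, adjusted p = 9.8e-12, edgeR). MYBL2, which acts with FOXM1 on the same promoters, was at 174, 169 and 170 CPM against 63.5, 61.0 and 66.0 CPM (log2 fold change -1.42, SE 0.05, adjusted p = 1.75e-13). PRC1, a bundler of the central spindle, fell from 167 ± 4.71 to 64.8 ± 1.22 CPM, and the S and G2 phase cyclin CCNA2 from 120 ± 5.05 to 49.0 ± 1.35 CPM (SD, n = 3). ECT2, which starts cytokinesis, was the 1 mitosis gene that rose, from 123 ± 1.40 to 155.5 ± 6.996 CPM (SD, n = 3).

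Among replication genes GINS2, a subunit of the replicative helicase complex, changed the most. It was at 40.6, 41.3 and 40.9 CPM in shKDM5C and at 10.8, 8.36 and 10.3 CPM in the double knockdown, a 4.13-fold decrease (log2 fold change -2.05, SE 0.09, adjusted p = 4.04e-12, edgeR). The helicase subunit MCM6 fell from 127 ± 4.53 to 51.9 ± 0.191 CPM and the chromatin assembly factor CHAF1B from 30.3 ± 3.98 to 12.8 ± 1.30 CPM (SD, n = 3). PCNA, the sliding clamp, and the licensing factor CDT1 were called higher, but by log2 fold changes of only 0.11 and 0.17, and both lost the call under several of the alternative settings. In nucleotide supply, the CTP synthetase CTPS1 (-1.29), the thymidine kinase TK1 (-1.25) and the mitochondrial folate enzyme MTHFD2 (-1.15 on the log2 scale) fell the most. The cohesin subunit SMC1A went from 184 ± 4.57 to 83.3 ± 2.02 CPM (SD, n = 3, log2 fold change -1.13), and the condensin II subunit NCAPG2 changed by -0.96. MAU2, a subunit of the cohesin loader, was the 1 member of this list that rose (0.27).

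The G1 regulators were divided, with 11 of 26 higher and 10 lower (median -0.0169). The D-type cyclin CCND2 was nearly silent in shKDM5C cells, at 0.0528, 0.383 and 0.268 CPM, and was at 20.2, 19.9 and 22.6 CPM in the double knockdown. With 13 counts in all 3 shKDM5C libraries together, its log2 fold change of 6.46 has a wide counting error. The kinase CDK6, which pairs with D-type cyclins, rose from 201 ± 1.746 to 421 ± 28.9 CPM (SD, n = 3). The inhibitor CDKN2D (-1.36) and the factors E2F2 (-1.29) and E2F8 (-1.07 on the log2 scale) fell.

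Of the 6 genes that the study named as targets of both proteins, 5 were lower and 0 higher. These genes were chosen by the study with these samples in view and give no independent evidence of direction. JAM3, a junctional adhesion molecule, was at 32.4, 28.7 and 28.1 CPM in shKDM5C and at 12.4, 11.2 and 12.6 CPM in the double knockdown (log2 fold change -1.29, SE 0.09, adjusted p = 1.3e-09, edgeR). Among the condensin ATPases, SMC2 was at 136, 134 and 140 CPM against 81.0, 88.2 and 83.6 CPM (log2 fold change -0.69, SE 0.05), and SMC4 at 178, 172 and 175 CPM against 136, 153 and 130 CPM (-0.32, SE 0.06, adjusted p = 7.63e-05). The kinetochore checkpoint gene KNTC1 fell from 100.3 ± 8.80 to 72.4 ± 3.85 CPM (SD, n = 3, log2 fold change -0.46), and FOXM1 is described above. The nuclear lamina gene LMNB1 did not pass the test, at 109 ± 2.12 and 114 ± 2.67 CPM (SD, n = 3, adjusted p = 0.132). Its libraries did not overlap, and it was called higher with total counts in place of TMM factors (log2 fold change 0.14, adjusted p = 0.0201) and with the trend over transcript length and GC content removed (0.13, adjusted p = 0.00892).

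Target genes of the tumour suppressor p53 were higher. Of 24 tested, 21 were higher and 3 lower, with a median log2 fold change of 1.21. CDKN1A, which encodes the cyclin-dependent kinase inhibitor p21, was at 221, 223 and 218 CPM in shKDM5C and at 645, 585 and 664 CPM in the double knockdown. The groups were far apart, with a 2.88-fold increase (log2 fold change 1.52, SE 0.05, adjusted p = 8.08e-14, edgeR). BTG2, an antiproliferative factor, was at 50.5, 54.3 and 52.98 CPM against 233, 215 and 227 CPM, a 4.29-fold increase. GDF15, a secreted stress cytokine of the TGF-beta family, was at 117, 123 and 114 CPM against 437, 454 and 451 CPM, a 3.80-fold increase. BBC3, which encodes the death-promoting BH3-only protein PUMA, rose from 15.2 ± 1.25 to 57.9 ± 9.14 CPM (SD, n = 3). The 3 members that fell were BAX, from 147 ± 8.80 to 110 ± 11.4 CPM (SD, n = 3), the nuclease AEN (-0.39) and PMAIP1 (-0.27, adjusted p = 0.0188), and the last lost its call without double-knockdown replicate 3 (adjusted p = 0.0902), with total counts in place of TMM factors (0.0503) and with the length and GC trend removed (0.0867).

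Apoptosis machinery genes had no common direction, with 15 of 36 higher and 9 lower. The death receptor FAS rose from 56.0 ± 1.33 to 127 ± 2.92 CPM and the apoptosis inhibitor BIRC3 from 40.0 ± 0.989 to 142 ± 4.97 CPM (SD, n = 3). BBC3, given above, is also a member of this list. DIABLO (log2 fold change -1.88, SE 0.16), the caspase CASP9 (-1.15, SE 0.15) and CYCS, which encodes cytochrome c (-0.96, SE 0.05), fell.

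**Figure D2:**
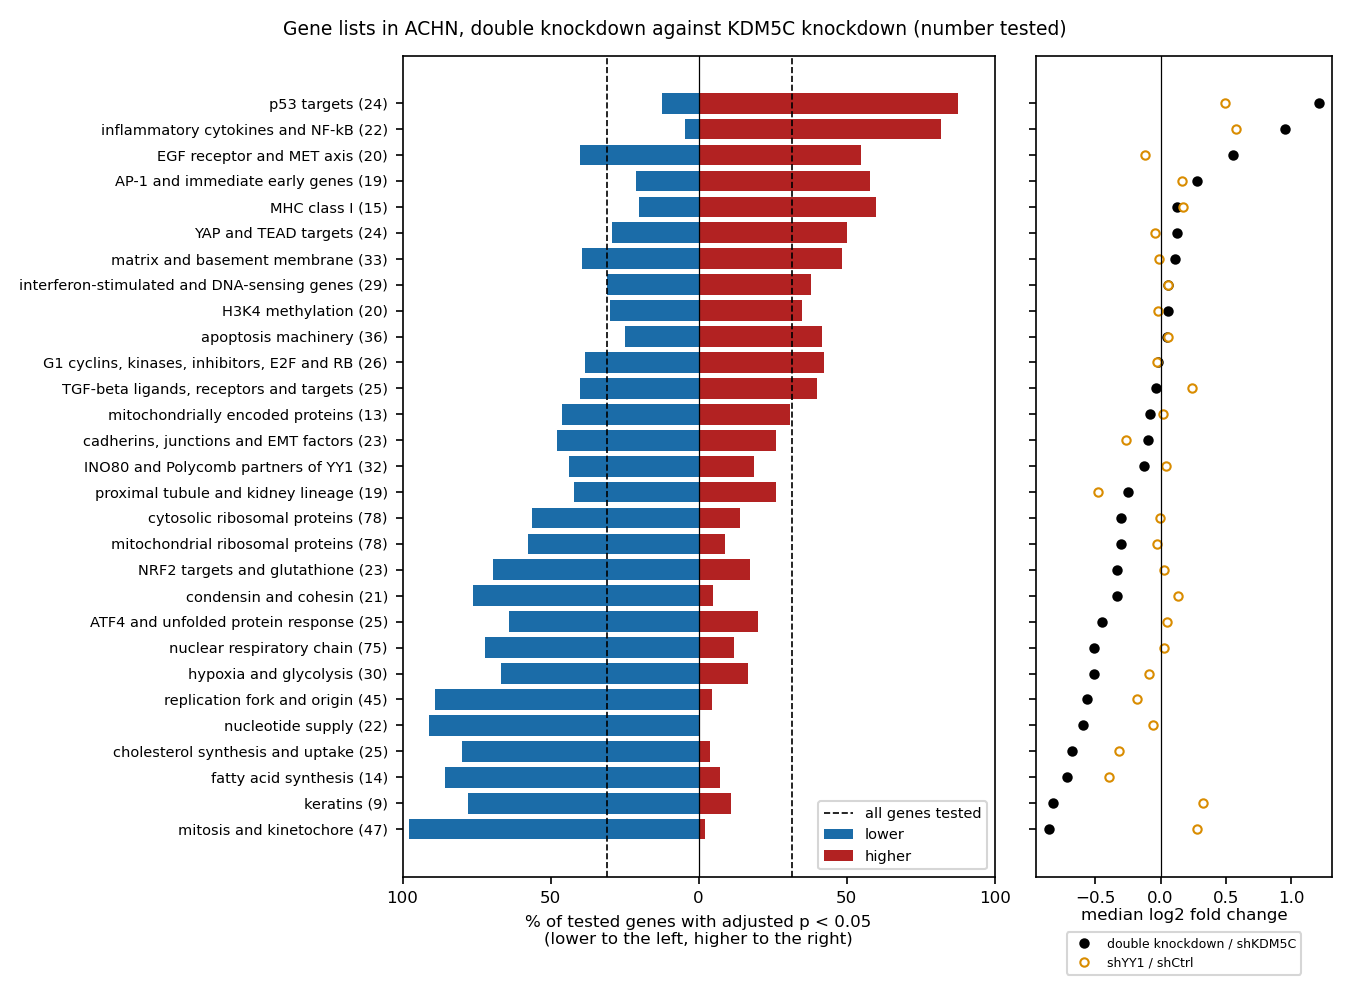
The left panel gives, for each gene list (number tested in parentheses), the percent of tested genes called lower (bars to the left) and higher (bars to the right) at an adjusted p-value under 0.05 in double-knockdown against shKDM5C cells, with dashed lines at the shares of all genes, 30.9% and 31.6%. The right panel gives each list's median log2 fold change in this contrast (filled) and for shYY1 against shCtrl (open); mitosis genes were at -0.85 and 0.283, and p53 targets at 1.21 and 0.495.

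Lipid synthesis genes were lower. Of 25 genes of cholesterol synthesis and uptake, 20 were lower and 1 higher (median -0.68), and of 14 genes of fatty acid synthesis, 12 were lower and 1 higher (median -0.72). SCD, the desaturase that makes monounsaturated fatty acids, was at 946, 965 and 995 CPM in shKDM5C and at 232, 246 and 237 CPM in the double knockdown. This 4.04-fold decrease was far beyond the spread of the libraries (log2 fold change -2.02, SE 0.04, adjusted p = 6.66e-16, edgeR). HMGCS1, an early enzyme of the mevalonate pathway, was at 108, 107 and 108 CPM against 29.97, 29.1 and 28.4 CPM, a 3.68-fold decrease. The sterol isomerase EBP (-1.40), the elongase ELOVL6 (-1.26) and the desaturase FADS2 (-0.98) also fell. SREBF2, which encodes the sterol-sensing transcription factor of this pathway, was the 1 cholesterol gene that rose (log2 fold change 0.30), and the long-chain acyl-CoA ligase ACSL4 the 1 fatty acid gene (0.52).

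Genes of hypoxia and glycolysis were lower in 20 of 30 cases and higher in 5 (median -0.51). Adrenomedullin, ADM, fell from 13.4 ± 0.942 to 3.35 ± 0.665 CPM, the stress gene NDRG1 from 48.8 ± 3.10 to 25.1 ± 2.46 CPM and the glycolytic enzyme PGAM1 from 899 ± 14.1 to 509.9 ± 10.7 CPM (SD, n = 3). VEGFA (0.49), EGLN1 (0.53) and KDM3A (0.34 on the log2 scale) rose. Of 25 ATF4 and unfolded protein response genes 16 were lower and 5 higher. The serine synthesis enzyme PHGDH (-1.38), the amino acid transporter SLC7A5 (-1.23) and the cystine transporter SLC7A11 (-1.06) fell, while SESN2 (1.80) and DDIT4 (1.73), both inhibitors of mTORC1, rose. NRF2 and glutathione genes were lower in 16 of 23 cases and higher in 4. The heme-degrading enzyme HMOX1 fell from 198 ± 4.36 to 79.4 ± 7.55 CPM (SD, n = 3).

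Genes of ribosomes and respiration were also lower, but here transcript length moved with the result. Of 78 cytosolic ribosomal protein genes 44 were lower and 11 higher (median -0.31), of 78 mitochondrial ribosomal protein genes 45 and 7 (-0.31), and of 75 nuclear genes of the respiratory chain 54 and 9 (-0.51). Their canonical transcripts were short, with median lengths of 782, 1240 and 763 bases against 2920 over all genes tested. Protein-coding genes with transcripts of up to 600 bases had a median log2 fold change of -0.468 (161 genes, 14.3% higher and 54.0% lower), and those over 5000 bases a median of 0.125 (3631 genes, 43.8% higher and 26.2% lower). No such trend was seen for shYY1 against shCtrl, where the medians were 0.00728 and -0.0144, and in HK-2 cells it ran the other way, from 0.154 to -0.179. With each library's trend over transcript length and GC content removed, a fit added after the data were seen, the cytosolic ribosomal genes had 28 higher and 36 lower (median -0.08), the mitochondrial ribosomal genes 16 and 39, and the respiratory chain genes 12 and 48 (median -0.28). The part of transcript length in these lists was not tested further. The cell division, p53 and lipid lists moved little in that fit. Mitosis genes had 1 higher and 46 lower, replication genes 1 and 39, p53 targets 20 and 2, cholesterol genes 2 and 21 and fatty acid genes 1 and 12.

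**Figure D3:**
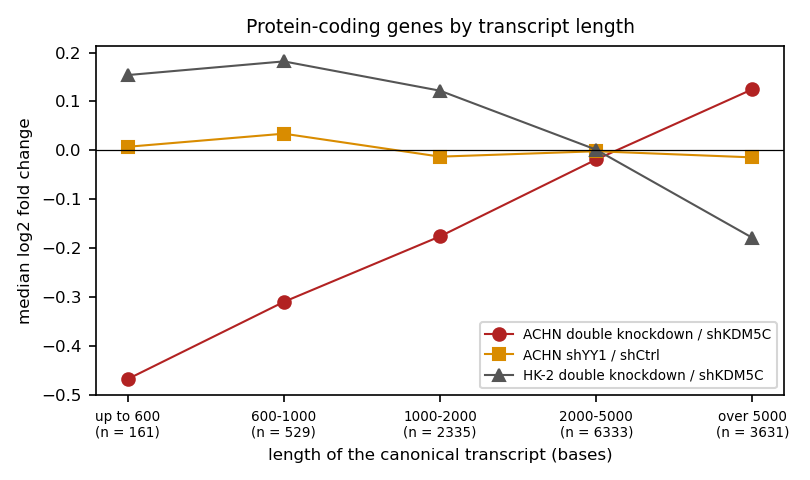
Median log2 fold change of protein-coding genes in bins of canonical transcript length (number of genes in each), for double-knockdown against shKDM5C cells in ACHN, shYY1 against shCtrl in ACHN and double-knockdown against shKDM5C cells in HK-2. The first ran from -0.468 in the shortest to 0.125 in the longest bin, the second stayed near 0 and the third ran from 0.154 to -0.179.

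Single members of these lists moved far more than the lists did. RPS23, a protein of the small ribosomal subunit, was at 193, 213 and 178 CPM in shKDM5C and 14.1, 12.3 and 12.8 CPM in the double knockdown (log2 fold change -3.89, SE 0.08, adjusted p = 1.98e-16, edgeR). RPL30 (-3.84) and RPL23A (-3.38) of the large subunit fell by similar amounts, whereas RPL29 (0.80) rose. Ribosomal protein genes have many processed pseudogenes that can share reads with them, so these values are uncertain. The pseudogene RPSAP15 was at 137 to 154 CPM in shKDM5C and 2.22 to 4.24 CPM in the double knockdown, and RPL29P4 at 55.2 to 70.3 against 1.58 to 3.11 CPM while its parent RPL29 rose. RPSAP47, a processed copy of RPSA, had 1 count in the 3 double-knockdown libraries and 31.4 to 37.0 CPM in shKDM5C. In HK-2 cells RPSAP15 and RPSAP47 were at low levels in all groups, no more than 3.38 CPM and 0.408 CPM in any library. The levels of these pseudogenes thus fell, as did those of RPS23, RPL30 and RPL23A, but not those of the parents RPSA and RPL29. RPSA was at 1030 to 1080 CPM in shKDM5C and 1210 to 1310 CPM in the double knockdown. The sharing of reads between copies was not measured, and its part in the ribosomal result was not tested.

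Among nuclear respiratory genes, the complex I subunits NDUFB3 and NDUFS6 fell by 1.65 and 1.61 on the log2 scale and the ATP synthase subunit ATP5F1E by 1.63, while the complex I subunits NDUFA9 (0.87), NDUFA11 (0.85) and NDUFS7 (0.77) rose. Of mitochondrial ribosomal proteins MRPS28 (-3.40), MRPS18C (-2.74) and MRPL33 (-1.46) fell the most, and MRPS30 (0.71) and MRPL45 (0.58) rose. The 13 protein genes of the mitochondrial genome were divided, with 4 higher and 6 lower, which became 8 and 4 with the trend removed. MT-ND4L was at 1983, 2077 and 1992 CPM in shKDM5C and at 681, 341 and 332 CPM in the double knockdown, so that replicate 1 was well above the other double-knockdown libraries. MT-ATP8 was at 26.9 ± 3.12 and 8.59 ± 1.27 CPM in these groups but at 361 CPM in the control cells and 394 CPM after YY1 knockdown alone. The mitochondrial genome's share of all counts was nearly the same in the groups, 6.65% to 6.80% in shKDM5C and 6.80% to 7.08% in the double knockdown.

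YY1 recognises a short motif whose core is the letters ATGGC, and promoters were searched for AANATGGC on either strand (GCCATNTT in reverse), in RefSeq windows of GRCh38.p14 that reach from 250 bases before to 50 bases after each gene's start. The motif was present in 9.82% of the 11329 tested genes that matched a window and in 6.82% of all 27305 windows. The share was 11.1% among genes that were lower in the double knockdown, 9.13% among higher genes and 9.23% among genes not called. Past the study's fold threshold it was 7.83% among lower genes (22 of 281) and 2.36% among higher genes (7 of 296). Both shares were below the 9.82% of the matched genes. Of the genes with the motif 38.0% were lower and 29.1% higher, against 33.2% and 31.6% of those without. It was common in mitochondrial ribosomal (25 of 70 windows, 35.7%) and nuclear respiratory chain promoters (22 of 62, 35.5%), and rare in mitosis and kinetochore promoters (1 of 39, 2.56%). These are descriptions of letters in the window and say nothing of binding.

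Stretches of 30 bases around the motif are shown for a condensin gene that fell, for respiratory and mitochondrial ribosome genes that went in opposite directions with near-identical motifs, and for KDM5C itself. Capitals mark the motif, the first base of the gene is position 1, and bases before it are negative.
SMC4, distal motif (chr3:160399534-160399563, plus strand): ggagcgacaatAAGATGGCggtgataatcg
SMC4, proximal motif (chr3:160399636-160399665, plus strand): gtattttaggcGCCATTTTcgagtgaagga
NDUFS6 (chr5:1801404-1801433, plus strand): gccagcggcgcAAAATGGCggcggcgatga
NDUFA9 (chr12:4649113-4649142, plus strand): gattgtgggaaAAGATGGCggctgccgcac
MRPS30 (chr5:44808949-44808978, plus strand): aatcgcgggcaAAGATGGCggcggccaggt
KDM5C (chrX:53225181-53225210, minus strand): gctgacaaaccAAGATGGCggcggcggcgc
In SMC4 the motif began at position -105 and, in reverse orientation, at position -3. NDUFS6, in which it began at position 9, fell (log2 fold change -1.61), whereas NDUFA9 (position 11) and MRPS30 (position 14) rose, by 0.87 and 0.71. In KDM5C it began at position 9, and the gene did not pass the test in this contrast.

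Inflammatory genes were mostly higher. Of 22 cytokine and NF-kB genes tested, 18 were higher and 1 lower (median 0.95). The neutrophil chemokine CXCL8 was at 5.54, 7.17 and 6.55 CPM in shKDM5C and at 28.1, 31.5 and 26.2 CPM in the double knockdown (log2 fold change 2.16, SE 0.11, adjusted p = 2.87e-11, edgeR). The colony-stimulating factor CSF2 rose from 2.44 ± 0.274 to 16.2 ± 2.03 CPM, and the adhesion molecule VCAM1 from 0.611 ± 0.198 to 31.7 ± 1.70 CPM (SD, n = 3). The monocyte chemokine CCL2 was the 1 member that fell, from 32.7 ± 2.63 to 20.5 ± 1.89 CPM (SD, n = 3). Interferon-stimulated and DNA-sensing genes had no common direction (11 of 29 higher, 9 lower). SAMD9L (1.26), IRF1 (1.02) and IFIT2 (0.69) rose and IFI6 (-0.98) and USP18 (-0.58 on the log2 scale) fell. Of 15 MHC class I genes 9 were higher and 3 lower, with the peptide transporter TAP1 at 0.62 and the immunoproteasome subunit PSMB9 at -0.77. B2M, the light chain of class I molecules, was lower by 0.11, but it was higher by 0.17 with the length and GC trend removed.

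Matrix genes were divided (16 of 33 higher, 13 lower, which became 12 and 14 with the length and GC trend removed). FN1, which encodes fibronectin, was at 2072, 2069 and 2071 CPM in shKDM5C and at 5906, 6397 and 6123 CPM in the double knockdown, a 2.98-fold increase (log2 fold change 1.58, SE 0.04, adjusted p = 1.43e-15, edgeR). The collagens COL5A2 (2.06) and COL1A1 (1.46) rose, and COL8A1 (-1.21), COL5A1 (-0.84) and COL7A1 (-0.81) fell. Keratins, the intermediate filaments of epithelia, were lower in 7 of 9 cases and higher in 1 (median -0.82). KRT8 was at 1943, 1980 and 1895 CPM against 715, 643 and 723 CPM, a 2.78-fold decrease, and KRT19 changed by -1.03. Cadherins, junction genes and EMT factors included 6 higher and 11 lower of 23. The tight junction genes CLDN2 (2.92) and CLDN1 (1.64) rose, and cingulin, CGN (-2.10), CDH13 (-2.03) and EPCAM (-1.35) fell.

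Signalling genes moved in both directions within each list, as all genes tested did (31.6% higher, 30.9% lower). Among YAP and TEAD targets (12 of 24 higher, 7 lower) the ectonucleotidase NT5E rose 3.90-fold, from 44.6 ± 0.846 to 173 ± 5.35 CPM, and ANKRD1 fell from 57.7 ± 1.25 to 14.99 ± 0.807 CPM (SD, n = 3). Of 25 TGF-beta genes 10 were higher and 10 lower, with the receptor TGFBR2 (1.36) up and the matrix protein TGFBI (-1.60) down on the log2 scale. With the length and GC trend removed these counts became 7 and 13, and those of the YAP and TEAD targets 10 and 8. In the EGF receptor and MET axis (11 of 20 higher, 8 lower) the ligands AREG (2.55) and EREG (2.51) and the feedback inhibitor SPRY2 (1.71) rose, while the receptors ERBB3 (-2.27) and EGFR (-0.51) and the ligand HBEGF (-1.82) fell. AP-1 and immediate early genes were higher in 11 of 19 cases and lower in 4, led by JUND (1.80) and EGR1 (1.53). Of 19 kidney lineage genes 5 were higher and 8 lower. The renal transcription factor PAX8 rose from 379 ± 3.64 to 709.5 ± 32.9 CPM (SD, n = 3), and LHX1 (-2.15) and PAX2 (-0.75) fell.

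Chromatin genes changed by smaller amounts. Of 32 INO80 and Polycomb genes 6 were higher and 14 lower, and the histone H3 lysine 27 methyltransferase EZH2 fell from 111 ± 0.917 to 60.4 ± 1.95 CPM (SD, n = 3, log2 fold change -0.87). The Polycomb proteins JARID2 (0.57) and BMI1 (0.55) rose. Of 20 H3K4 methylation genes 7 were higher and 6 lower, near the shares of all genes. These counts became 4 and 10 with the length and GC trend removed. The methyltransferase KMT2D rose by 0.57, and the demethylases KDM1B and KDM1A fell by 0.96 and 0.62 on the log2 scale.

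Among protein-coding genes at 10 CPM or more in the higher group, those with the largest increases after CCND2 were PPP1R1A (5.95), VCAM1 (5.69), PDE4C (5.53), PAPLN (4.27), FEZ1 (4.05) and SIGLEC15 (4.03). PPP1R1A, an inhibitor of protein phosphatase 1, was at 0.317, 0.438 and 0.161 CPM in shKDM5C and 20.3, 18.5 and 18.7 CPM in the double knockdown. PAPLN, a matrix protein, was at 2.85, 3.34 and 3.65 CPM against 61.4, 58.8 and 68.5 CPM. FAM110C (3.90), KCNJ16 (3.81), MLPH (3.48), CDH10 (3.33) and FXYD2 (3.27), the gamma subunit of the renal sodium pump, completed the 12. The largest decrease was that of PLEKHA7, an adherens junction protein, at 63.6, 65.3 and 62.0 CPM in shKDM5C and 1.79, 2.13 and 2.34 CPM in the double knockdown (log2 fold change -4.91, SE 0.10, adjusted p = 3.14e-16, edgeR). FGFR2, a fibroblast growth factor receptor, was at 71.5, 71.1 and 74.3 CPM against 8.42, 7.92 and 10.6 CPM (-2.98). The transcription cofactor LBH (-4.39), the mitotic actin-binding protein MISP (-3.21), MDGA1 (-3.17), the bone morphogenetic ligand GDF6 (-3.04), ATP6V0C (-2.87), a proton pump subunit, and the metallothionein MT1F (-2.85) fell next to the 4 ribosomal genes given above. Per kilobase of transcript, some of the largest differences in level were those of the actin-binding peptide TMSB10, which went from 1490 ± 96.9 to 364.6 ± 95.1 CPM, and of the mitochondrial tRNA gene MT-TY, which went from 13.5 ± 0.627 to 161.4 ± 21.4 CPM (SD, n = 3).

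To ask how much of this depended on low KDM5C, the change from shKDM5C to double knockdown was set beside that from shCtrl to shYY1, which shares no library with it. YY1 knockdown alone changed 24.2% of 16370 genes upward and 24.5% downward, together 48.7%, with 0.904% and 2.23% past the larger threshold. Over the 15581 genes tested in both, the changes were nearly unrelated (Pearson r = 0.0686, Spearman rho = 0.0483 across genes, which are not independent). Of 4869 genes higher in the double knockdown, 1426 were also higher on YY1 knockdown alone and 1193 were lower. Of 4943 lower genes 1513 were also lower and 1377 were higher. The difference of the changes, tested as an interaction in all 12 ACHN libraries, passed for 55.6% of 17228 genes, 26.8% above and 28.8% below 0. The double-knockdown libraries enter this test with the length trend and the low pseudogene levels described above, which set RPSAP15 and RPSAP47 apart from the other 3 ACHN groups. No label used here gives a preparation or sequencing date, so a batch difference of these libraries cannot be told apart from the knockdown, and the part of these shifts in the interaction was not tested. A positive value there means a higher level than the separate changes add up to on the log2 scale.

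Mitosis genes showed the clearest contrast between backgrounds. With undiminished KDM5C, 38 of 47 were higher and 3 lower on YY1 knockdown (median 0.283), and the interaction was below 0 for 45 and above 0 for 1. FOXM1 went from 163 ± 0.493 CPM in shCtrl to 214 ± 2.55 CPM in shYY1 (SD, n = 3, log2 fold change 0.37), against -0.94 on the KDM5C-knockdown background (interaction -1.34, adjusted p = 3.65e-17, edgeR). Replication genes fell in both backgrounds, 25 of 45 with 0 higher on YY1 knockdown alone, and the interaction was below 0 for 30. Of the 24 p53 targets, 20 were higher and 3 lower on YY1 knockdown alone (median 0.495), and the interaction was above 0 for 20 and below 0 for 2. Cholesterol genes (2 higher, 19 lower of 25) and fatty acid genes (0 higher, 13 lower of 14) were lower without KDM5C knockdown as well. The interaction was nevertheless below 0 for 19 cholesterol genes and above 0 for 3. For fatty acid genes it was below 0 for 7 and above 0 for 4, the latter near the share of all genes. SCD fell there by 1.05 on the log2 scale, less than on the KDM5C-knockdown background (interaction -0.99, adjusted p = 2.5e-14, edgeR). ELOVL6 fell by 1.52, and its interaction of 0.23 did not pass the test (adjusted p = 0.188). Keratins turned, from 6 higher and 1 lower of 8 to 1 and 7 of 9, with the interaction below 0 for 8.

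**Figure D4:**
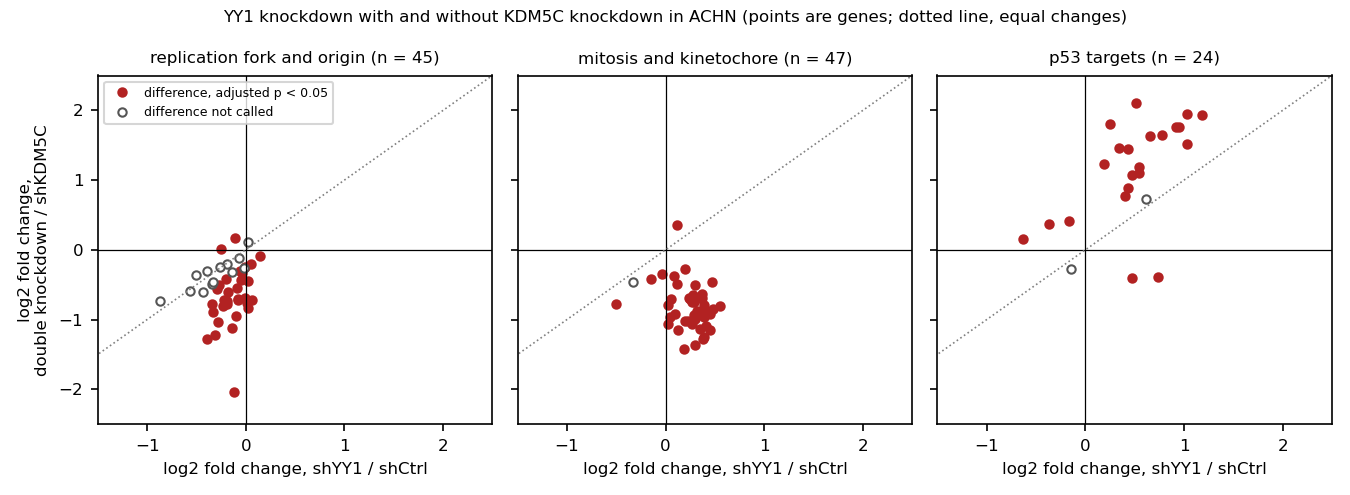
Each point is 1 gene of the named list, with its log2 fold change for shYY1 against shCtrl on the horizontal axis and for double-knockdown against shKDM5C cells on the vertical axis; filled points passed the interaction test and the dotted line marks equal changes. Mitosis genes lie mostly right of 0 and below 0, replication genes mostly below the line, and p53 targets mostly above it.

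Some single genes changed in opposite directions in the backgrounds. FN1 fell from 3317 ± 150 CPM in shCtrl to 865 ± 36.5 CPM in shYY1 and rose in the double knockdown (interaction 3.51, adjusted p = 2.48e-25, edgeR). COL1A1 also fell on YY1 knockdown alone and rose from shKDM5C to double knockdown (-1.90 against 1.46). Its levels were 575 ± 26.5 CPM in shCtrl, 156 ± 3.00 in shYY1, 48.6 ± 2.49 in shKDM5C and 133 ± 8.33 in the double knockdown (SD, n = 3). It thus stayed below shCtrl after the rise. HMOX1 (1.077 against -1.31), SLC7A5 (0.71 against -1.23), ANKRD1 (2.34 against -1.94) and PLEKHA7 (1.74 against -4.91) rose on YY1 knockdown alone and fell from shKDM5C to double knockdown. HMOX1 was at 49.8 CPM in shCtrl, 198 in shKDM5C and 79.4 in the double knockdown, and so stayed above shCtrl. SLC7A5 (1905, 1267 and 539.5 CPM in that order) and PLEKHA7 (30.3, 63.6 and 2.09 CPM) ended below it. CTPS1 (85.7, 194 and 78.9 CPM) and ELOVL6 (15.1, 30.2 and 12.6 CPM) also fell from a level above shCtrl. VEGFA rose from a level below shCtrl and stayed below it (117, 54.9 and 76.8 CPM). NRK, a protein kinase gene on the X chromosome, was at 66.2, 69.8 and 69.1 CPM in shCtrl, 0.0524, 0.159 and 0.165 CPM in shYY1, 69.2, 63.9 and 70.5 CPM in shKDM5C, and 78.0, 86.7 and 76.3 CPM in the double knockdown. The near loss of this transcript was thus seen in shYY1 cells and not in the double knockdown (interaction 9.27, adjusted p = 3.48e-23, edgeR), although the study describes the latter as made from YY1-depleted cells.

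**Figure D5:**
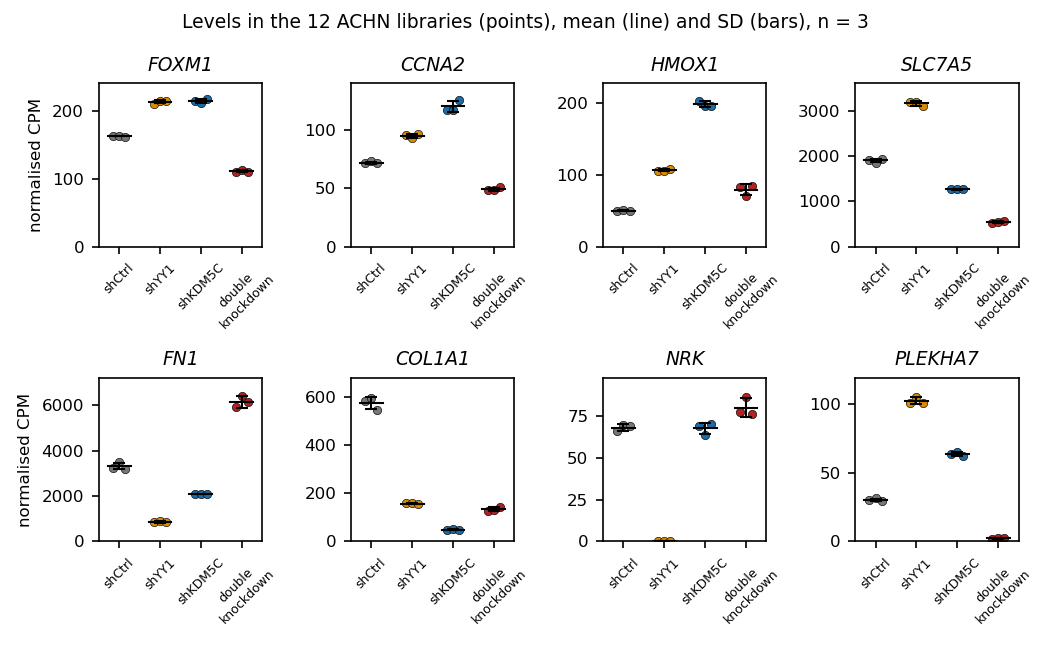
Levels of 8 genes in the 12 ACHN libraries in normalised CPM from 0, in the order shCtrl, shYY1, shKDM5C and double knockdown, with points for libraries, a line for the mean and bars for the SD. FOXM1, CCNA2, HMOX1, SLC7A5 and PLEKHA7 rose from shCtrl to shYY1 and fell from shKDM5C to double knockdown, FN1 and COL1A1 did the opposite, and NRK was nearly absent in shYY1 alone.

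In HK-2 cells the same contrast could be tested less well, since shKDM5C replicate 1 stood apart from its group (chi-square per degree of freedom of 129 and 123 against the other replicates, and 11.8% of counts from the mitochondrial genome against 5.13% and 5.28%). With all 6 libraries 1005 genes were higher (6.26% of 16042) and 896 lower (5.59%), and without that replicate 3696 and 3501 of 16633 (22.2% and 21.0%). Past the larger threshold were 2.84% and 1.52% of the genes with all libraries. YY1 fell more than in ACHN, from 239.8 ± 30.8 to 74.98 ± 1.55 CPM (SD, n = 3, log2 fold change -1.68). Replication genes were lower in 14 of 45 cases and higher in 0, or 33 and 1 without the replicate, and p53 targets were higher in 9 of 24 and lower in 0, or 17 and 4. Mitosis genes were lower in 7 of 47 and higher in 0, or 30 and 7. Cholesterol genes, mostly lower in ACHN, were higher in 6 of 25 and lower in 2, or 15 and 4 without the replicate (median 0.369 with all libraries), and fatty acid genes were higher in 1 of 14 and lower in 0, or 3 and 3. CDKN1A rose (log2 fold change 2.36, adjusted p = 0.00369), FGFR2 fell (-2.35, adjusted p = 0.00109), and CXCL8 (1.96), CSF2 (2.93) and NT5E (3.302) rose as in ACHN. Cytokine and NF-kB genes were higher in 10 of 24 and lower in 2, or 16 and 3 without the replicate. VCAM1, which rose in ACHN, fell in HK-2 from 16.4 ± 2.06 to 6.35 ± 1.36 CPM (SD, n = 3, log2 fold change -1.37, adjusted p = 0.00855, edgeR). ATF4 and unfolded protein response genes were higher in 14 of 25 and lower in 0, or 21 and 1 without the replicate. SLC7A5 rose by 1.42 with all libraries, where it fell in ACHN. The difference between the cell lines, tested in 12 libraries, passed for 25.4% of 17888 genes, 12.2% above and 13.2% below 0. Of the genes past the larger threshold in ACHN that were tested in HK-2 without the replicate, 156 of 433 higher genes were also higher and 48 lower, and 112 of 357 lower genes were also lower and 61 higher.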

How the data were processed

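Per the study's methods and the file headers, the authors aligned paired 150-base reads to the human genome with HISAT2 (2.0.5) and deposited raw counts per gene from featureCounts (2.0.1 in the headers, 1.5.0-p3 in the submitters' processing notes), counted as read pairs without a strand option on Ensembl release 84 (GRCh38). Overlapping and antisense genes can therefore not be separated, and paralogs and pseudogenes can share reads. Of 60675 genes, 56558 were given a symbol; the others hold 0.243% of the counts. Library totals ranged from 15926561 to 24272298 counts.

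Groups were taken from the labels. Each comparison was fitted with edgeR 4.0.16 (R 4.3.3), using TMM factors, the low-count filter, the quasi-likelihood F test and Benjamini-Hochberg adjustment over all genes tested. Fold changes are double knockdown over shKDM5C unless named otherwise, and errors of log2 fold changes are standard errors. With 3 against 3 libraries an exact permutation test cannot go below p = 0.1, so p-values come from these models. DESeq2 1.42.0, run without the low-count filter, was an alternative. The main edgeR fit of each comparison and the length and GC fit were tested on simulated counts, and the other settings were not. The simulations held far fewer changed genes than were called in ACHN, so they do not give error rates for these data. Promoter sequences are from RefSeq, transcript lengths from GENCODE, and all columns of counts in the files belong to a labelled sample.

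Genes are named by a rule: the targets and their paralogs, 6 genes of the study, the 12 largest protein-coding changes each way without overlap at 10 CPM or more, the 6 largest level differences per kilobase, up to 3 genes each way per list at 5 CPM or more, and the 6 largest each way for the interaction and the cell line difference. The markers ANGPTL4, CA9 and PDGFRB were named after their values were seen. The contrast, the lists and the rule were chosen with earlier results of these data known. Of 931 genes in the 30 lists, 860 were tested. The length and GC fit was added after the data were seen. Some genes that the rule selects are not reported here.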

Additional observations from a re-analysis of the deposited data

Results flagged for a closer look

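The change on YY1 knockdown differed between KDM5C backgrounds in ACHN for 4625 genes above 0 and 4961 below 0, by the interaction test in edgeR over 12 libraries. Among the named genes the largest interactions above 0 were those of ENSG00000274224 (10.63), VCAM1 (9.79), NRK (9.27), ENSG00000274804 (8.27), ENSG00000276924 (7.32) and FXYD2 (6.55 on the log2 scale). Below 0 they were those of RPSAP47 (-10.43), PLEKHA7 (-6.67), MT-TN (-6.33), MT2P1 (-6.03), RPSAP15 (-5.57) and LBH (-4.89). VCAM1 had 0 counts in shYY1 and RPSAP47 had 1 count in the double knockdown, so their fitted values depend on edgeR's prior count and are no measure of size. ENSG00000274224 ranged from 12.7 to 72.1 CPM in the double-knockdown libraries, and its call was lost without shCtrl replicate 1 (value 4.31, adjusted p = 0.399, edgeR).

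The change from shKDM5C to double knockdown differed between ACHN and HK-2 for 2176 genes above 0 and 2361 below 0. A value above 0 means a log2 fold change that was more positive, or less negative, in ACHN, and not a larger change. The largest differences above 0 were those of ENSG00000274224 (9.37), PPP1R1A (7.92), ENSG00000274804 (7.45), VCAM1 (7.04), CCND2 (6.78) and ENSG00000276924 (6.04). Below 0 they were RPSAP47 (-10.73), MT2P1 (-6.77), NFASC (-6.03), STC1 (-5.58), RPL29P4 (-5.31) and MT-TN (-5.22). NFASC and STC1 were at 0 counts in HK-2 shKDM5C cells, and their values depend on the prior count in the same way. PPP1R1A was near the floor in HK-2, at 0.172 ± 0.133 CPM in shKDM5C and 0.039 ± 0.034 CPM in double-knockdown cells (SD, n = 3). It was not tested in HK-2 alone, and its value of 7.92 (SE 0.97) is no measure of size. Pseudogenes and mitochondrial tRNA genes, which can share reads with other copies, made up RPSAP47, RPSAP15, MT2P1, RPL29P4 and MT-TN, and the part of shared reads in these values was not tested. ENSG00000274804 (92 bases) and ENSG00000274224 (49 bases) are short entries on the assembly sequence KI270733.1. The former had means of 0.509, 0.550 and 0.338 CPM in ACHN shCtrl, shKDM5C and shYY1 and 116 CPM in the double knockdown. Its means in the HK-2 groups were 81.2 to 95.5 CPM, and the cause was not tested. Groups of 3 are too small for the test of single outlying libraries.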

How the results depend on the processing

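The counts of genes higher and lower in ACHN stayed within 1.5 times of 5085 and 4982 under all settings run. Genes past the larger threshold numbered 957 higher and 784 lower with DESeq2, which was also run without the low-count filter. In edgeR without that filter they numbered 1352 and 997. An adjusted p-value with a log2 fold change of at least 1, which is a looser fold, gave 1364 and 1095. Leaving out each library in turn gave 618 to 748 higher and 531 to 646 lower genes past the larger threshold. In HK-2, leaving out any 1 library moved the counts by over 1.5 times and gave 240 to 3696 higher and 143 to 3501 lower genes, the highest without shKDM5C replicate 1, and for the cell line difference 1451 to 3829 above and 1730 to 4098 below 0, the highest again without that library.

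With the replicate number as a block, 4941 genes were higher and 4911 lower in ACHN, and 473 and 324 in HK-2. The numbers only name the libraries, since same-numbered libraries of the compared ACHN groups did not deviate together (r = 0.012, -0.008 and -0.005).

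Of 2822 values of 202 named genes in the ACHN contrast under the alternatives, 2776 kept their direction and side of the threshold, 37 fell short of it and 4 newly passed it. With the length and GC trend removed, 5 turned: KDM5A (-0.11), MT-CO2 (0.12), CDT1 (-0.065), KMT2B (-0.065) and B2M (0.17). KDM5C passed the test in that fit alone (-0.21, adjusted p = 0.0035, edgeR). PCNA lost its call in 10 settings, with adjusted p-values up to 0.309. Of 840 list counts 28 moved by over 1.5 times, 9 of them in the trend fit. The causes were not tested.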
